A study of Danio rerio with 15 samples.

Results

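Transcription factor genes of the cranial neural crest and pharyngeal arches were examined in heads of zebrafish (Danio rerio) embryos. Of 10 genes chosen by name, with earlier results of these data known, 9 were found among the 23009 genes of the deposited tables. They are tfap2a, sox10, twist1a, prrx1a, dlx2a, dlx5a, hand2, barx1 and sox9a. The remaining gene, foxd3, was not analysed here.

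The neural crest is a cell population that leaves the border of the neural tube and, in the head, fills the pharyngeal arches. There it forms cartilage and bone of the jaw and gills, while other crest cells become pigment cells, glia and peripheral neurons. AP-2 and SoxE factors set up crest fate, Twist and Prrx factors act in the skeleton-forming mesenchyme, and endothelin signalling through Dlx and Hand factors sets the dorsal and ventral parts of an arch. Barx1 and Sox9 act in cartilage formation. Several of these genes are also used outside the crest, dlx2a and dlx5a in forebrain neurons, tfap2a in epidermis, sox10 in the inner ear and hand2 in the heart and pectoral fin.

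The study compared 3 groups of 5 libraries at 2 days post-fertilization, each library from a pool of 20 heads of embryos from matings of wild-type adults. One group was injected with a guide RNA against ncapg2 plus Cas9 nuclease, another with the guide RNA alone, and the last with phenol red, a tracer dye. The stated question is what loss of NCAPG2, a subunit of the chromosome-compacting complex condensin II, does to the transcriptome of the developing head. Cas9 was not injected without the guide in any group, so the presence of Cas9 and the editing of ncapg2 cannot be told apart. The guide carries different numbers in sample titles and treatment labels and is called the guide RNA here. Embryos injected in this way are usually mosaic, so that a pooled head sample can hold edited and unedited cells.

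The targeted gene checked the labels. In guide RNA plus Cas9 libraries S11 to S15, ncapg2 had normalized counts of 423, 407, 373, 505 and 432, against 988, 979, 901, 809 and 885 in guide RNA libraries S6 to S10 and 834, 868, 945, 754 and 880 in phenol red libraries S1 to S5. A normalized count is a gene's reads divided by 1 size factor per library. Every guide RNA plus Cas9 value lay below every value of the other groups, and their mean was 46.9% of the guide RNA mean (two-sided exact permutation p = 0.00794, the smallest that 252 regroupings can give, n = 5 per group).

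Libraries also varied together across the groups. Gene reads per library numbered between 41.58 and 48.51 M (mega) with guide RNA plus Cas9, between 39.79 and 49.3 M with guide RNA, and between 34.97 and 46.46 M with phenol red. From 18593 genes outside the lists used here, 5 sets of 1 library per group that deviated alike from their group means were found, and are called A to E. The sets follow the order of the library numbers within each group. Set A (S11, S6 and S1) stood apart, with correlations of 0.797 to 0.852 between its libraries, against 0.054 to 0.654 within the other sets. Summed yolk and liver markers, which mark tissue outside the head, were between 81572 and 105922 normalized counts in set A and between 13817 and 61090 in the other 12 libraries. Much of the lowest sums was rbp4, which overlapped, with 13534 to 16294 in set A and 11495 to 17584 in the others. Of 17 of these markers tested, 15 lay above all other libraries in every set A library, against 9.25% of genes. What the sets stand for was not given in the sources used here. Forebrain GABA neuron markers summed to between 43623 and 50871 normalized counts in set A and between 51346 and 58009 in the other 12 libraries. None was at 0 in any library. Of 18 of these markers tested, 2 lay below all other libraries in every set A library, against 8.15% of genes. As these are bulk samples, fewer cells of a type and less RNA per cell cannot be told apart.

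The 9 regulators passed the filter on low values in every comparison, and the fewest reads for any of them in a library were 307, for twist1a in S3. Their levels are not compared with each other, because transcript lengths were not given in the sources used here.

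The AP-2 gene tfap2a is needed for crest specification and for jaw and pigment cell formation. Its normalized counts were 8217, 8957, 9067, 9875 and 9305 in guide RNA plus Cas9 libraries S11 to S15, 6934, 8856, 8997, 9438 and 9566 in guide RNA libraries S6 to S10, and 5647, 9805, 9139, 9497 and 9582 in phenol red libraries S1 to S5. In each group the lowest value was that of the set A library, and the groups overlapped. The log2 fold change was 0.06 ± 0.09 (SE) for guide RNA plus Cas9 versus guide RNA, 0.08 ± 0.13 for guide RNA plus Cas9 against phenol red and 0.02 ± 0.15 for guide RNA against phenol red. Without set A these were 0.01, -0.03 and -0.05, so that the sign turned in both comparisons with phenol red. On assembly GRCz12tu tfap2a overlaps tmem14ca, which had 361 to 523 normalized counts per library, and the strand setting of the counting was not given in the sources used here.

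The SoxE gene sox10 is needed for crest-derived pigment cells and peripheral glia. It had normalized counts of 1607, 1705, 1885, 1768 and 1873 with guide RNA plus Cas9, 1490, 1603, 1669, 1876 and 1548 with guide RNA, and 1547, 1700, 1769, 1592 and 1628 with phenol red. The groups overlapped. By set, the guide RNA plus Cas9 library was above the phenol red library in 5 of 5 and above the guide RNA library in 4 of 5. Set counts of this kind, here and below, were not compared with all genes, so no effect is read from them. Its log2 fold change was 0.11 ± 0.07 (SE) for guide RNA plus Cas9 versus guide RNA, 0.10 ± 0.06 for guide RNA plus Cas9 against phenol red and -0.01 ± 0.07 for guide RNA against phenol red. None of these passed the test.

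**Figure D1:**
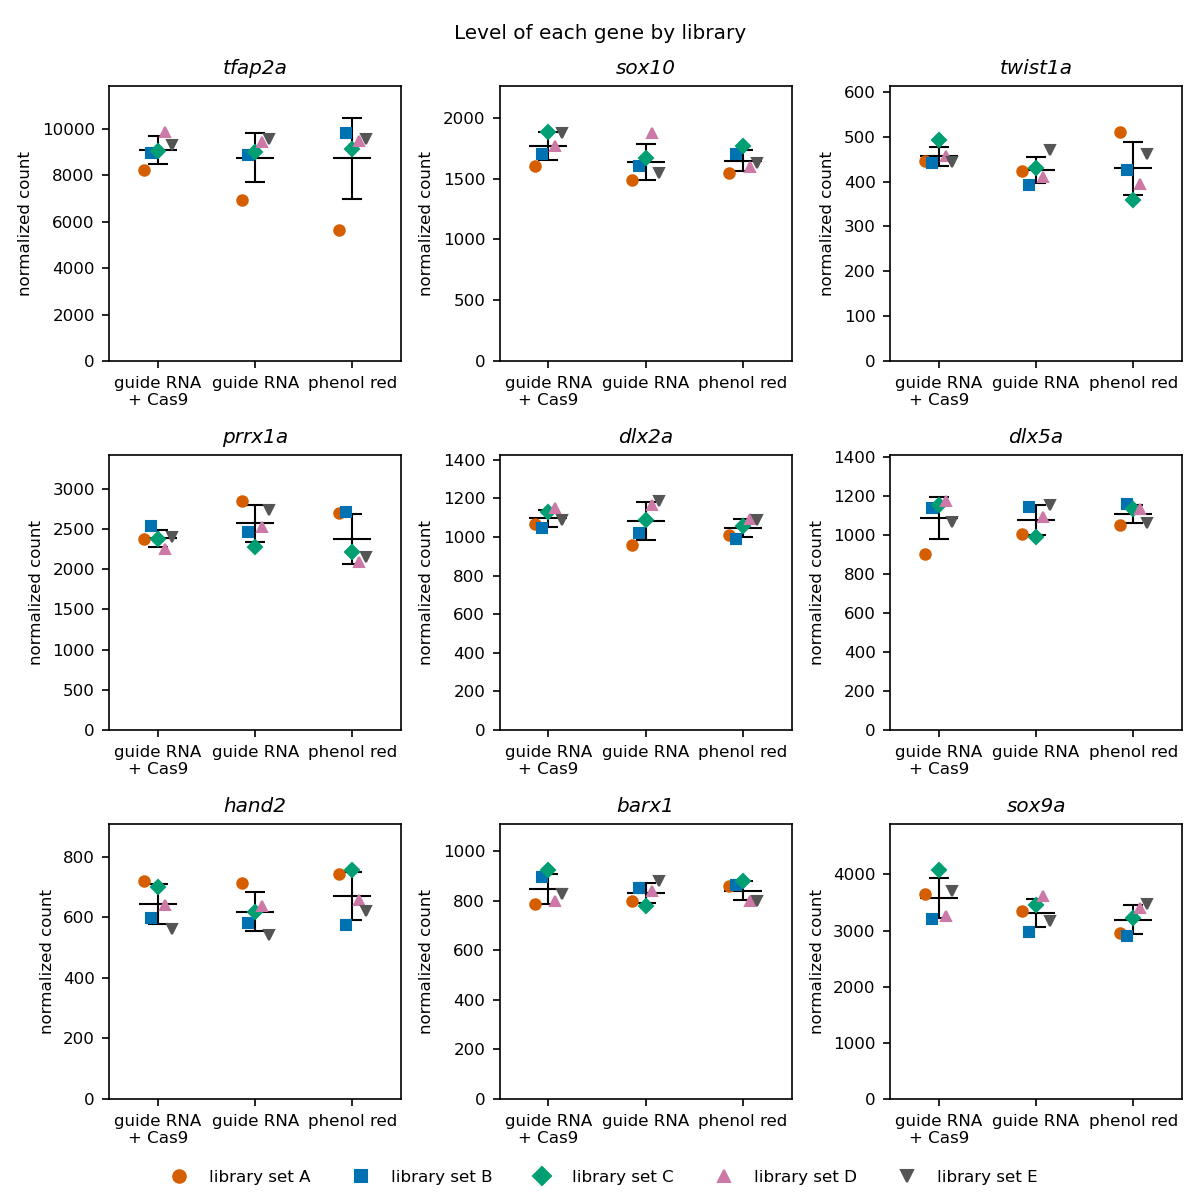
Normalized count (y axis) of each of the 9 regulators in guide RNA plus Cas9, guide RNA and phenol red libraries, with the mean and SD of each group (n = 5) and points coloured by library set. The groups overlap for every gene, and the lowest tfap2a points of the groups, 8217, 6934 and 5647, are the set A libraries.

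The bHLH gene twist1a, which acts in crest cells that form skeleton, averaged 456 ± 20.9 normalized counts with guide RNA plus Cas9, 425 ± 29.4 with guide RNA and 430.1 ± 59.2 with phenol red (SD, n = 5 each). Its highest and lowest libraries, S1 at 511 and S3 at 358, were both phenol red. The log2 fold change was 0.10 ± 0.07 (SE) for guide RNA plus Cas9 versus guide RNA and 0.09 ± 0.09 for guide RNA plus Cas9 against phenol red, where it was 0.17 without set A. For guide RNA against phenol red it was -0.01 ± 0.10, and 0.06 without set A.

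The paired-related homeobox gene prrx1a marks craniofacial and fin mesenchyme. It had 2372, 2540, 2372, 2245 and 2395 normalized counts with guide RNA plus Cas9, 2849, 2462, 2272, 2522 and 2731 with guide RNA, and 2701, 2714, 2211, 2094 and 2155 with phenol red. The guide RNA plus Cas9 libraries lay within the range of the phenol red libraries. Of the 9 genes, prrx1a alone had a negative log2 fold change for guide RNA plus Cas9 versus guide RNA, -0.10 ± 0.06 (SE). It was at 0.01 ± 0.08 for guide RNA plus Cas9 against phenol red and 0.12 ± 0.09 for guide RNA against phenol red.

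Of the arch patterning genes, dlx2a is expressed in crest-derived arch mesenchyme and in forebrain precursors of GABA neurons. Its normalized counts were 1065, 1045, 1131, 1152 and 1088 with guide RNA plus Cas9, 956, 1018, 1087, 1167 and 1187 with guide RNA, and 1010, 989, 1055, 1090 and 1089 with phenol red. The guide RNA libraries held both the lowest and the highest value. The log2 fold change was 0.02 ± 0.07 (SE) for guide RNA plus Cas9 versus guide RNA, which was -0.01 without set A, and 0.07 ± 0.05 for guide RNA plus Cas9 against phenol red.

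The gene dlx5a acts in the ventral and intermediate arch under endothelin signalling. It averaged 1089 ± 110.1 normalized counts with guide RNA plus Cas9, 1079 ± 76.2 with guide RNA and 1108 ± 47.4 with phenol red (SD, n = 5 each). Its lowest library was S11 of set A, at 905. For barx1, a homeobox gene that favours cartilage over joint formation, the means were 848 ± 60.9 with guide RNA plus Cas9, 830.4 ± 40.5 with guide RNA and 841 ± 38.2 with phenol red. Among the 9 genes barx1 was the most even from library to library, with an SD of its log2 level of 0.08 over 15 libraries, and 7.24% of the 21902 genes tested over all libraries had a smaller one. The log2 fold changes of both genes lay between -0.04 and 0.03 in the 3 comparisons.

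The bHLH gene hand2 sets the ventral fate of the jaw arch and is also active in the heart and pectoral fin. Its normalized counts were 721, 597, 702, 640.2 and 563 with guide RNA plus Cas9, 713, 582, 618, 636 and 542 with guide RNA, and 743, 575, 757, 656 and 620 with phenol red. The set A library was the highest with guide RNA plus Cas9 and with guide RNA, and came after S3 of set C with phenol red. The groups overlapped, with the guide RNA plus Cas9 library above the guide RNA library in 5 of 5 sets. The log2 fold change was 0.06 ± 0.09 (SE) for guide RNA plus Cas9 versus guide RNA, -0.05 ± 0.09 for guide RNA plus Cas9 against phenol red and -0.11 ± 0.09 for guide RNA against phenol red. In these comparisons the heart markers had median log2 fold changes of 0.07 (8 of 12 tested positive), -0.35 (1 of 13) and -0.32 (0 of 13), and none was called by limma without a block. With the library set as a block in limma, 2 heart markers were called for guide RNA against phenol red, the natriuretic peptide gene nppa at -0.67 and the ventricular myosin gene vmhcl at -0.40 on the log2 scale (adjusted p = 0.0109 each), against 4 of 21601 genes (0.0185%). With that block 11 of 13 heart markers had an unadjusted p under 0.05 for guide RNA against phenol red, against 7.71% of genes, and 7 of 13 for guide RNA plus Cas9 against phenol red, against 9.12%. The sets were chosen for likeness among these same libraries, so p-values with the block can be too small. Heart markers can also vary together, so these are not 13 separate results. By limma with the block, hand2 had an unadjusted p of 0.0606 and an adjusted p of 0.67 for guide RNA against phenol red. Summed heart markers were between 9510 and 15065 normalized counts with guide RNA plus Cas9, between 9082 and 12456 with guide RNA and between 10669 and 14841 with phenol red. Their part in the hand2 values was not tested.

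The HMG-box gene sox9a drives cartilage differentiation. It had 3660, 3208, 4081, 3251 and 3708 normalized counts with guide RNA plus Cas9, 3346, 2973, 3462, 3624 and 3162 with guide RNA, and 2956, 2901, 3231, 3396 and 3474 with phenol red. The groups overlapped, and the highest library was S13 of guide RNA plus Cas9. Of the 27 fold changes of these genes, that of sox9a for guide RNA plus Cas9 against phenol red was the farthest from 0, at 0.16 ± 0.08 on the log2 scale (SE; 95% interval -0.01 to 0.34), with 4 of 5 sets higher. By limma its unadjusted p was 0.0613 and its adjusted p 0.9999. In the authors' deposited table this comparison has a log2 fold change of 0.17 with p = 0.0387 and an adjusted p of 0.9999. Against guide RNA the log2 fold change of guide RNA plus Cas9 was 0.11 ± 0.08, and guide RNA against phenol red was at 0.05 ± 0.07.

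None of the 9 regulators was called at an adjusted p of 0.05. Between guide RNA plus Cas9 and guide RNA, which asks what Cas9 changed beyond the guide, limma called 0 of 9 regulators, against 1 of 21590 genes (0.00463%), which was ncapg2. The log2 fold changes of the regulators ran from -0.10 to 0.11 with a median of 0.06, and 8 of 9 were positive, against a median of 0.002 and 50.9% positive over all genes tested. With each library left out in turn, the median of the regulators ran from 0.015 without S6 to 0.074 without S11. Without set A it was 0.05, with 7 of 9 positive. For guide RNA plus Cas9 against phenol red, 0 of 9 regulators were called, against 1 of 21580 genes (0.00463%), again ncapg2. Their log2 fold changes ran from -0.05 to 0.16 with a median of 0.07, and 7 of 9 were positive, against 0.005 and 52.2% over all genes. For guide RNA against phenol red, the background of guide injection, 0 of 9 regulators and 0 of 21601 genes (0%) were called by limma, with 224 genes at an unadjusted p under 0.05, and DESeq2 and edgeR also called 0 genes. The regulators ran from -0.11 to 0.12 with a median of -0.01, and 4 of 9 were positive, against 0.008 and 54.7% over all genes. These comparisons share libraries, so their values are not independent of each other.

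At an unadjusted p under 0.05 limma also counted 0 of 9 regulators in each comparison. Over all genes that share was 0.917% for guide RNA plus Cas9 versus guide RNA, 2.29% for guide RNA plus Cas9 against phenol red and 1.04% for guide RNA against phenol red. Each share was smaller than a threshold of 0.05 gives by chance, so the fit without a block was conservative. A count of 0 here is therefore weak evidence of no difference. With the library-set block in limma these counts were 0, 1 and 0 of 9, the 1 being sox9a. Over all genes they were then 983 of 21590, 1969 of 21580 (9.12%) and 1665 of 21601 (7.71%). On the recovered reads edgeR called 0 regulators, with 0 at an unadjusted p under 0.05. Of 21590, 21580 and 21601 genes edgeR called 1, 1 and 0, with 187, 515 and 219 at an unadjusted p under 0.05. DESeq2 called 0 regulators, with sox9a for guide RNA plus Cas9 against phenol red at an unadjusted p of 0.0489. Over the same genes DESeq2 called 1, 2 and 0, with 181, 566 and 217 at an unadjusted p under 0.05. The groups overlapped for each of the 9 regulators, while 0.232%, 0.426% and 0.204% of all genes had groups that did not, in the same order of comparisons. A limma F test of any difference among the 3 groups called 0 of 9 regulators and 1 of 21902 genes (0.00457%). At an unadjusted p under 0.05 it counted 0 of 9 regulators and 1.14% of genes, and the smallest p of a regulator was 0.129, for sox9a.

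The intervals limit the size of a difference in the level of a gene in pooled whole heads that could have been missed. A larger change in part of the cells, such as those of the arches, is not limited by them. Each is the interval of 1 gene in 1 comparison and is not adjusted for their number. Over the 9 genes and 3 comparisons, the 95% limits of the fold lay between 0.801 and 1.30, so a 1.5-fold change in either direction was outside each interval. The widest interval on the log2 scale was that of tfap2a for guide RNA against phenol red, with limits of the fold at 0.812 and 1.27. Between guide RNA plus Cas9 and guide RNA the narrowest on that scale was that of barx1, from 0.928 to 1.12.

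**Figure D2:**
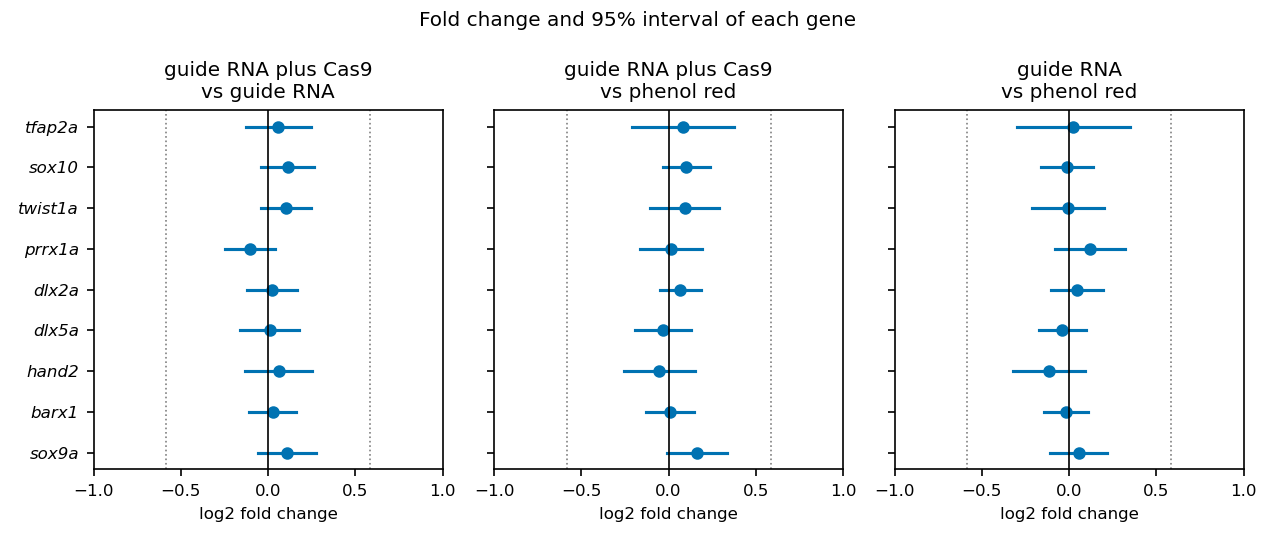
Log2 fold change (x axis, points) with its 95% interval (lines) from limma for each regulator in the 3 comparisons, with dotted lines at 1.5-fold in either direction. Each interval includes 0 and none reaches a dotted line, and the widest are those of tfap2a against phenol red.

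Paralogs of the 10 genes chosen by name can share functions with them, and 21 were tested, among them foxd1, foxd2 and foxd5 for foxd3. None was called in any comparison, and the median log2 fold change was 0.002 for guide RNA plus Cas9 versus guide RNA (11 of 21 positive), 0.02 for guide RNA plus Cas9 against phenol red (13 of 21) and 0.02 for guide RNA against phenol red (12 of 21). The other zebrafish Sox9 gene, sox9b, was at 0.21 ± 0.11 (SE) for guide RNA plus Cas9 versus guide RNA, with 5 of 5 sets higher. In that comparison dlx3b was at -0.13 ± 0.06, with 5 of 5 sets lower. The sox9b means were 1843 normalized counts with guide RNA plus Cas9, 1585 with guide RNA and 1735 with phenol red. Those of dlx3b were 1132, 1238 and 1184. The guide RNA mean of sox9b was thus the lowest, at -0.13 ± 0.10 on the log2 scale against phenol red. For guide RNA plus Cas9 against phenol red, the AP-2 gene tfap2e was at 0.33 ± 0.14 (limma, unadjusted p = 0.0395, adjusted p = 0.9999) and the forkhead gene foxd1 at 0.16 ± 0.08. Guide RNA without Cas9 gave the same value for foxd1 against phenol red, 0.16 ± 0.08, and 0.20 ± 0.15 for tfap2e. For tfap2e the means were 1402 ± 148 normalized counts with guide RNA plus Cas9, 1285 ± 181 with guide RNA and 1133 ± 242 with phenol red (SD, n = 5 each), and its lowest library was S1 of set A, at 759. The name tfap2b stands on more than 1 row of the tables, and the row with the highest mean was used.

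Other genes of early crest were tested from a list of 30. Of 29 tested with guide RNA plus Cas9 versus guide RNA, 0 were called and 21 were positive, with a median log2 fold change of 0.05. Among them were prdm1a, a gene of the neural plate border, at 0.15 ± 0.10 (SE), zic1 at 0.11 ± 0.07 and msx1a at 0.13 ± 0.09. For guide RNA plus Cas9 against phenol red, 0 of 29 were called and 22 were positive, with a median of 0.07 and prdm1a at 0.18 ± 0.10. For guide RNA against phenol red, 0 of 30 were called and 19 were positive, with a median of 0.01 and msx1a at -0.17 ± 0.10. Without set A these medians were 0.02, 0.04 and 0.0002.

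Genes of endothelin signalling and arch patterning act around dlx5a and hand2. With guide RNA plus Cas9 versus guide RNA, 0 of 62 were called and 36 were positive, with a median log2 fold change of 0.02, and the mesenchyme homeobox gene alx4b was at 0.21 ± 0.10 (SE) and the forkhead gene foxc1a at 0.21 ± 0.11. When guide RNA plus Cas9 was set against phenol red, 0 of 61 were called and 33 were positive, with a median of 0.003. Here edn1, the ligand that sets ventral arch fate upstream of hand2 and dlx5a, was at -0.30 ± 0.15, lower in 5 of 5 sets. Its normalized counts were 105.6, 95.3, 71.6, 100.7 and 114.8 with guide RNA plus Cas9, 106.5, 125.7, 104.6, 89.2 and 115.5 with guide RNA, and 141, 117.8, 96.8, 112.5 and 130.5 with phenol red. The groups overlapped for edn1, and its limma adjusted p was 0.9999. The BMP effector smad5 was at 0.13 ± 0.06, and at 0.10 ± 0.06 for guide RNA against phenol red. For guide RNA against phenol red, 0 of 61 were called and 29 were positive, with a median of -0.001.

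Genes of cartilage and bone, where sox9a acts, had 27 of 31 positive values and 0 called for guide RNA plus Cas9 versus guide RNA. The median log2 fold change was 0.07, and without set A it was 0.03, with 26 positive. The cartilage matrix genes acana and epyc were at 0.19 ± 0.10 (SE) and 0.11 ± 0.06, and the collagen gene col9a2 at 0.15 ± 0.09. With guide RNA plus Cas9 against phenol red, 0 of 31 were called and 20 were positive, with a median of 0.03, which was 0.01 with 16 positive without set A. The type II collagen genes col2a1a and col2a1b were at 0.27 ± 0.16 and 0.21 ± 0.10. For guide RNA against phenol red, 0 of 31 were called and 12 were positive, with a median of -0.01 and epyc at -0.14 ± 0.08.

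Crest-derived pigment cells and peripheral glia need sox10. Of 19 pigment cell markers 0 were called, and 17 were positive for guide RNA plus Cas9 versus guide RNA, 9 for guide RNA plus Cas9 against phenol red and 2 for guide RNA against phenol red, with medians of 0.08, -0.02 and -0.10. The melanin synthesis genes tyrp1a and tyr were at 0.26 ± 0.09 and 0.26 ± 0.10 (SE) in the first of these. In the last of them tyrp1a was at -0.22 ± 0.10. The samples were whole heads, and which pigmented cells these marker values come from, crest-derived or not, was not tested. Of 22 genes of migratory crest and crest glia tested, 0 were called in each comparison, with medians of 0.03, 0.01 and -0.02.

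Markers of other tissues were also tested, and none of those given here was called in a comparison, with or without the block. In the order of guide RNA plus Cas9 against guide RNA, guide RNA plus Cas9 against phenol red and guide RNA against phenol red, the 18 forebrain GABA neuron markers had medians of 0.01, 0.06 and 0.04. The 14 inner ear markers had medians of 0.03, 0.11 and 0.06, and the 15 oligodendrocyte and radial glia markers of -0.01, -0.05 and 0.04. The 20 epidermis markers had medians of -0.04, -0.04 and -0.01. The 10 or 11 pectoral fin markers tested had medians of 0.12, -0.02 and -0.11, and the 16 yolk and liver markers tested of -0.13, -0.58 and -0.40. For guide RNA plus Cas9 against phenol red, 2 of these 16 were positive. There apoea was at -1.94 ± 1.95 (SE) and apoa1a at -1.80 ± 1.72, while rbp4 was at -0.14 ± 0.10.

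The shares of spread lying between groups and between library sets differed among the 9 genes. The share of log2 variance between the 3 groups ranged from 2.45% for barx1 to 27.1% for sox9a, with a median of 10.6%, against a median of 6.85% over all genes tested. Some of the variance lies between groups by chance alone, so no group effect is read from these shares. The share between the 5 library sets ranged from 22.8% for twist1a to 75.0% for tfap2a and 79.2% for hand2, with a median of 42.5%, against 58.4% over all genes tested. For sox9a, 38.6% lay between sets. As the sets were found from the values of these libraries, these shares are a description. The 5 sets outnumber the 3 groups and were chosen for likeness, which raises the share between sets. Shares between sets and between groups are therefore not compared with each other.

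Among the 9 genes tfap2a alone lay below all other libraries in every set A library, as did 8.15% of the genes tested, and none lay above them in every set A library, as did 9.25%. Its mean was 6933 normalized counts in set A and 9340 in the other 12 libraries, a difference of -0.45 on the log2 scale, and 3.32% of genes tested had a lower one. All of its listed paralogs had lower means in set A too, tfap2c at 0.725 times its mean in the other libraries, tfap2e at 0.774, tfap2b at 0.816 and tfap2d at 0.850. Of the 9 genes, 3 had higher means in set A, hand2 with 725 against 624 in the other libraries, prrx1a with 2641 against 2393 and twist1a with 460 against 431. Paralogs with higher means included prrx1b, with 1563 against 1439. Of 23 genes of migratory crest and crest glia, 8 lay below all other libraries in set A and 0 above. Of 62 arch patterning genes 10 lay below and 1 above.

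**Figure D3:**
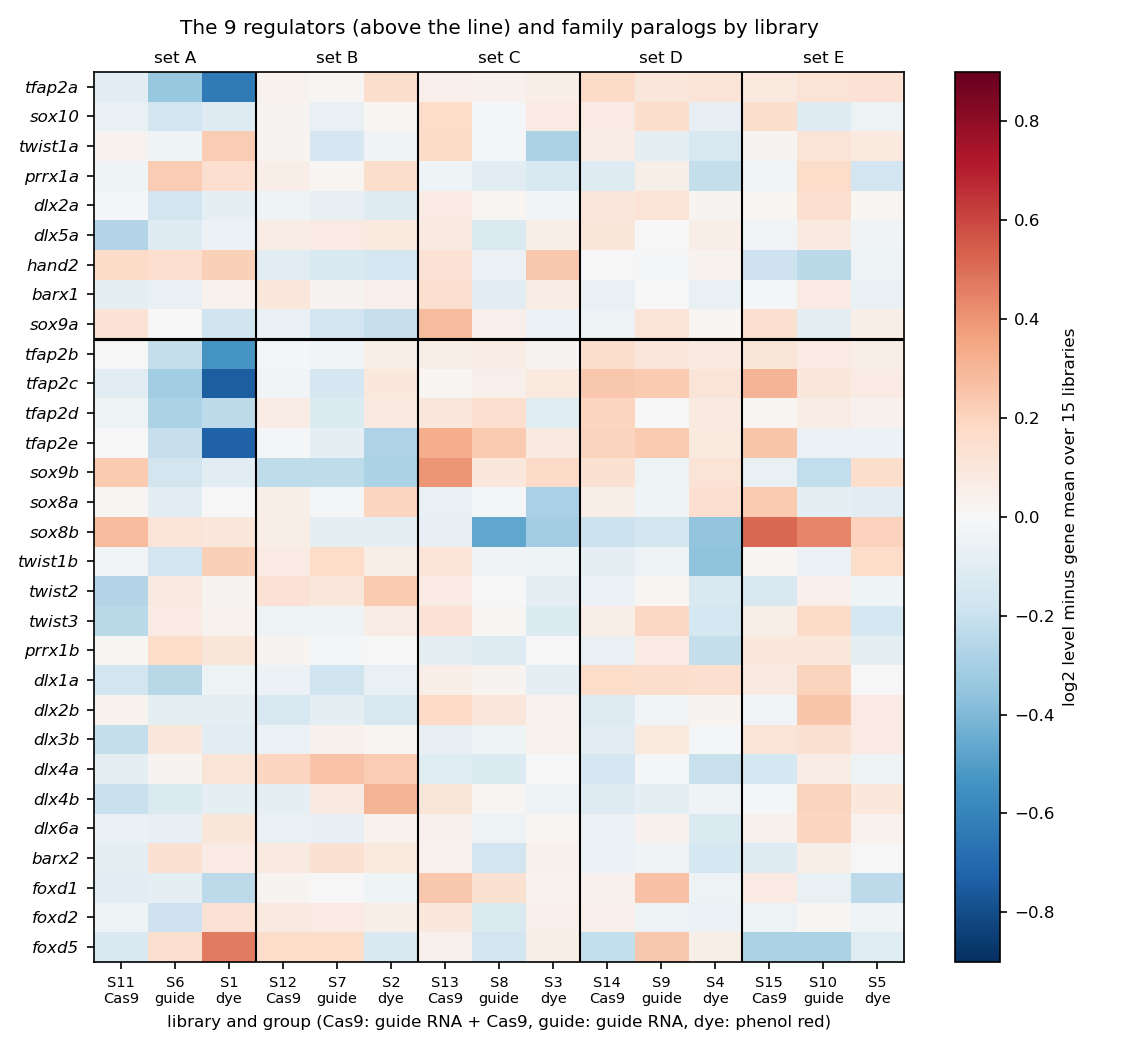
Log2 level minus the gene's mean over 15 libraries (colour, red higher and blue lower) for the 9 regulators (above the line) and 21 paralogs (below it), by library, grouped by library set and within a set as guide RNA plus Cas9, guide RNA and phenol red. The darkest blue cells are AP-2 genes in S1, where tfap2a had 5647 normalized counts and tfap2e 759.

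Markers of tissues outside the arches moved with hand2 and tfap2a from library to library. The correlations given here, of 9 genes with 13 lists (117 relations), are over 15 libraries that share library sets and describe these libraries. A list's score is the mean over its genes of the log2 level minus the gene's mean. The level of hand2 followed the score of the heart markers (r = 0.81, rho = 0.82, n = 15; r = 0.71 in the 12 libraries outside set A) and that of the pectoral fin markers (r = 0.78, rho = 0.725, n = 15; r = 0.61 in the 12). Summed fin markers were between 8608 and 9842 normalized counts in set A and between 2444 and 7628.5 in the other libraries, and no heart or fin marker was at 0 in a library. The level of tfap2a ran against the yolk and liver score (r = -0.69, rho = -0.775, n = 15, and r = -0.64 in the 12), where 2 of 18 markers were at 0 in a library. Among the 12, S14 had the highest tfap2a level and by far the lowest of these scores, -3.89, with the next at -1.55 in S2. The tfap2a level also ran against the fin score (r = -0.74, rho = -0.78, and r = -0.55 in the 12) and the heart score (r = -0.59, and r = -0.38 in the 12). Its highest r of the 13 lists was with the inner ear score (0.85, and -0.15 in the 12). The hand2 level also followed the yolk and liver score (r = 0.58, rho = 0.68, and r = 0.30 in the 12). These relations were thus not particular to 1 tissue. The part of such tissue in either gene's values was not tested.

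**Figure D4:**
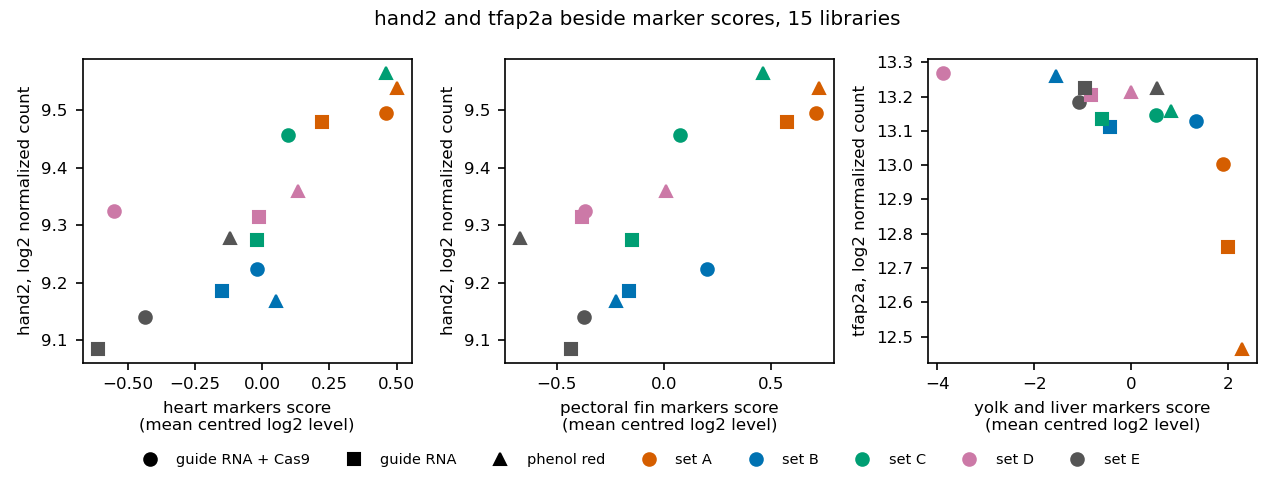
Log2 normalized count of hand2 (left and middle) and tfap2a (right) against the score of heart, pectoral fin, and yolk and liver markers (x axes), 1 point per library, with shapes for groups and colours for library sets. The correlations are 0.81, 0.78 and -0.69, and the set A libraries have the 3 lowest tfap2a levels.

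Lists of crest skeleton and forebrain genes moved with sox9a and dlx2a. The cartilage and bone score followed sox9a (r = 0.72, rho = 0.80, n = 15, and r = 0.87 in the 12 libraries outside set A), and so did the inner ear score (r = 0.60, rho = 0.65, and r = 0.90 in the 12). Over 15 libraries the cartilage and bone score also had r of 0.73 with dlx2a, 0.70 with sox10 and 0.68 with tfap2a. In the 12 these were 0.55, 0.53 and 0.02. The score of other early crest genes followed sox9a too (r = 0.73, and r = 0.84 in the 12), and that list holds its paralog sox9b. The forebrain GABA neuron score followed dlx2a (r = 0.86, rho = 0.84, n = 15; r = 0.83 in the 12), and that list holds the paralogs dlx1a, dlx2b and dlx6a. The arch patterning score followed sox10 (r = 0.77, rho = 0.75, n = 15; r = 0.70 in the 12). In contrast, tfap2a and the migratory crest score had r = 0.84 over 15 libraries and r = -0.48 in the 12, so that the relation rested on set A.

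The genes most like each regulator were sought by Pearson correlation of log2 levels over the 15 libraries among 15949 other named genes with a mean of 50 or more normalized counts. For dlx2a the nearest was its paralog dlx1a (r = 0.86, rho = 0.88; r = 0.87 in the 12 libraries outside set A), which is also its neighbour in the RefSeq annotation of assembly GRCz12tu. For dlx5a and its own neighbour dlx6a r was 0.19 (rho = 0.175; r = 0.06 in the 12). The nearest gene to barx1 was the forkhead gene foxc1b (r = 0.81, rho = 0.74; r = 0.79 in the 12).

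For sox9a the nearest were dock6, zswim5 and mex3b, with r of 0.92, 0.91 and 0.89, and for sox10 the nearest was cdon, a hedgehog co-receptor gene, with r = 0.90. For hand2 they were sc5d, pi15a and KCNJ15, with r of 0.91, 0.91 and 0.89. The nearest to dlx5a was med19b (r = 0.90; r = 0.68 in the 12 libraries outside set A), to twist1a glrx5 (r = 0.84; r = 0.81 in the 12) and to prrx1a fen1 (r = 0.89 in both). The nearest to tfap2a were lcorl, prpf8 and acsl3b, with r of 0.98 each over 15 libraries and of 0.69, 0.49 and 0.71 in the 12.

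The 9 regulators did not vary as a single block. Of 36 pairs among them, 4 had r over 0.5 and 1 had r under -0.5, with a median of 0.04 (n = 15). The highest was that of dlx5a and barx1 (r = 0.61, rho = 0.57; r = 0.58 in the 12 libraries outside set A). For sox9a and sox10 it was 0.52 (rho = 0.475; r = 0.62 in the 12), for dlx2a and tfap2a 0.56 (rho = 0.58; r = 0.28 in the 12), and for sox10 and tfap2a 0.51 (rho = 0.36; r = -0.07 in the 12). The lowest was that of hand2 and tfap2a (r = -0.57, rho = -0.43; r = -0.17 in the 12).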

How the data were processed

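Per the labels' protocols, messenger RNA of 15 pools of embryo heads was selected on oligo-dT beads, and libraries from a stranded kit were read from 1 end over 50 bp, with 5 libraries to a lane and some 66 M (mega) reads stated for each. Which libraries shared a lane was not given in the sources used here. Per the submitters' processing notes, the tools were STAR, HTSeq, DESeq2, bcl2fastq, cutadapt and Trim Galore. Tool versions, genome build, annotation and strand setting were not given in the sources used here. The authors deposited 3 tables, 1 per pair of groups, with a normalized signal per gene and library, which is a count divided by a size factor. Beside these stand the authors' log2 fold changes, a test statistic (a score) and p-values, as deposited. Columns carry no replicate number, and a column's group is the one shared by the tables that hold it. The series text speaks of biological replicates, and p-values measure the spread between pools.

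Whole reads were recovered from the steps of the values (100% whole within 0.001 of a read). Because the deposited values were normalized, limma 3.58.1 in R 4.3.3 (trend, robust) was run on log2(value + 1) of each pair of groups, keeping genes that reached 10 in 5 or more of the libraries compared. P-values were adjusted by Benjamini-Hochberg over all genes, and 0.05 was the threshold. Fold changes are on that scale and understate the change of low genes. The steps were tested on simulated data without library sets, so that test does not cover likeness between libraries of a set. The members and the 13 other gene lists (299 of 306 list entries matched) were chosen with earlier results of these data known. Some genes stand on more than 1 list, so the lists are not separate from each other. Named genes are ncapg2, the members, their paralogs, the 3 genes most like each member, and up to 4 genes per list with the smallest p in the comparison described; the members, and genes with no symbol or with a colon in it, were left out of the search for likeness. Alternatives were TMM, DESeq2 1.42.0 and edgeR 4.0.16 (quasi-likelihood) on recovered reads, other filters and pseudocounts, all 3 groups in 1 fit, non-robust moderation, a library-set block, each library left out, and, added after seeing the data, the removal of set A. The sets are the grouping with the highest mean correlation (0.568, the next 0.474) among 14400.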

Additional observations from a re-analysis of the deposited data

Results flagged for a closer look

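For 10 genes, the 9 regulators and ncapg2, each of the 3 groups of 5 libraries was searched for a library far from the other 4, in 30 sets of values, where chance gives about 1 in 20. Both libraries found were of tfap2a and belong to set A. In guide RNA, library S6 had 6934 normalized counts, with the others between 8856 and 9566, and its gap to the nearest was 0.73 of the range of the group. In phenol red, library S1 had 5647, with the others between 9139 and 9805 and a gap of 0.84 of the range. The third library of set A, S11 in guide RNA plus Cas9, had 8217 and was not apart from its group in this way.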

How the results depend on the processing

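No regulator was called under any alternative: of 567 values the smallest adjusted p was 0.499, and 10 had an unadjusted p under 0.05. Most of the 10 were sox9a for guide RNA plus Cas9 against phenol red, fitted again on shared libraries. The rest were of sox10 and prrx1a. The smallest was that of sox9a in this comparison by limma with the library-set block, at 0.0207. In that fit 9.12% of genes had an unadjusted p under 0.05. No paired analysis was possible because the library columns carry no replicate number that ties them to the numbered samples, but a fit with the library sets as a block was run. Those sets follow the order of the library numbers, and no source used here says whether they are the numbered replicates of the sample titles. Correlations within a set were positive in every pair, the lowest 0.054 for S12 and S2. With this block 983, 1969 and 1665 genes had an unadjusted p under 0.05, against 198, 495 and 224 without it, in the order of guide RNA plus Cas9 versus guide RNA, guide RNA plus Cas9 against phenol red and guide RNA against phenol red. Genes called were 3 with the library-set block for guide RNA plus Cas9 versus guide RNA, 2 with DESeq2 and 2 with the block for guide RNA plus Cas9 against phenol red, and 4 with the block for guide RNA against phenol red, among them the heart markers nppa and vmhcl. Of 630 log2 fold changes of the regulators and ncapg2 under alternatives, 36 changed sign, all of regulators and in 12 of 30 results; the cause was not tested. Without set A these were dlx2a at -0.0124 for guide RNA plus Cas9 versus guide RNA, dlx5a at 0.015 and tfap2a at -0.032 for guide RNA plus Cas9 against phenol red, and barx1 at 0.00269, tfap2a at -0.0452 and twist1a at 0.0588 for guide RNA against phenol red. With edgeR prrx1a was at -0.00196 for guide RNA plus Cas9 against phenol red.

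With each library left out in turn, log2 fold changes for guide RNA plus Cas9 versus guide RNA ranged from -0.0226 to 0.0551 for dlx2a, from -0.0201 to 0.0744 for dlx5a, from -0.00449 to 0.0535 for barx1 and from -0.0223 to 0.0951 for tfap2a. For guide RNA plus Cas9 against phenol red they ranged from -0.0607 to 0.0338 for dlx5a, from -0.0225 to 0.0355 for barx1, from -0.0675 to 0.131 for tfap2a and from -0.0288 to 0.0646 for prrx1a. For guide RNA against phenol red they ranged from -0.0621 to 0.021 for sox10, from -0.0397 to 0.00423 for barx1, from -0.127 to 0.105 for tfap2a and from -0.0705 to 0.0575 for twist1a.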

Other observations

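The levels of sox8b and dlx4a, paralogs not described above and chosen after their values were seen, differed between library sets. The SoxE gene sox8b was highest in S15 of guide RNA plus Cas9, at 135.6 normalized counts, and in S10 of guide RNA, at 128.4, both of set E, and its lowest library was S8 of guide RNA, at 68.3. The homeobox gene dlx4a was highest in set B in each group, at 922 with guide RNA plus Cas9, 963 with guide RNA and 945 with phenol red.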
